A study of Mus musculus with 48 samples.

Results

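Wild-type mouse macrophages cultured with lipopolysaccharide (LPS) and interferon-γ (IFN-γ) were compared with unpolarized wild-type macrophages, both given vehicle only. The 6 libraries, 3 a group, were taken by their labels from the 48 libraries of the series. Of 51789 gene IDs in the count table, all 11779 that passed a filter on low counts were tested. Cells of both groups were grown from C57BL/6 bone marrow for 6 days in 10 ng/mL M-CSF, the growth factor that drives macrophage differentiation. The group WT_M1 then had 24 h of 100 ng/mL LPS and 50 ng/mL murine IFN-γ, and the group WT_M0 had neither. No polarization time is given for WT_M0, so the total time in culture may differ between the groups. All 6 cultures also received DMSO, the vehicle of the compound AP-3-84, for 4 h. The labels do not say whether this fell within or after the 24 h. Nor do they say how old the mice were, or whether replicates were separate mice or cultures. The p-values rest on the spread within groups, which was estimated over 36 bone marrow-derived libraries. These include libraries given AP-3-84 and libraries labelled p53 knockout. This spread may be technical. Vehicle libraries of cells labelled p53 knockout in the same states (KO_M0 and KO_M1) and of wild-type cells given IL-4 and IL-13, 10 ng/mL each for 24 h (WT_M2), served for tests of difference.

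LPS is a cell wall component of Gram-negative bacteria that Toll-like receptor 4 senses with CD14 and MD-2, which switches on NF-kB, MAP kinases and type I interferon. IFN-γ acts through its own receptor, JAK kinases and STAT transcription factors on GAS elements, while type I interferon acts through STAT proteins joined with IRF9 on ISRE elements. Macrophages given both stimuli are known for cytokines, nitric oxide, antigen presentation and glycolysis.

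Promoters of 6 genes described below are shown because they hold matches to the letters these factors are known to bind. They are the 250 bases before a RefSeq start site (build GRCm38.p6), 5′ to 3′, with matches in capitals. The motifs searched on both strands were GAAA followed after any 2 bases by GAAA (ISRE-like), TTC followed after any 3 bases by GAA (GAS-like) and GGGA followed after any 2 bases by TTCC (kB-like).
Isg15 promoter, chr4:156200819-156201068, minus strand: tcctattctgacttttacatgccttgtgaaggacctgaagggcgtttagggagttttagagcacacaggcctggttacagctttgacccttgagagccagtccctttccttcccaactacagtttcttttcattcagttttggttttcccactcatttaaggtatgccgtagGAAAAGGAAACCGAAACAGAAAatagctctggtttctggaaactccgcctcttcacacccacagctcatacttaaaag
Gbp2 promoter, chr3:142620413-142620662, plus strand: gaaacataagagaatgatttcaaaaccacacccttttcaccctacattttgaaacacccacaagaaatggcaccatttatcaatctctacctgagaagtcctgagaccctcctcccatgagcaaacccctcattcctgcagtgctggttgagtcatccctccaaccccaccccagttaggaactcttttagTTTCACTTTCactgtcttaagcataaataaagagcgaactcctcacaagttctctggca
B2m promoter, chr2:122147437-122147686, plus strand: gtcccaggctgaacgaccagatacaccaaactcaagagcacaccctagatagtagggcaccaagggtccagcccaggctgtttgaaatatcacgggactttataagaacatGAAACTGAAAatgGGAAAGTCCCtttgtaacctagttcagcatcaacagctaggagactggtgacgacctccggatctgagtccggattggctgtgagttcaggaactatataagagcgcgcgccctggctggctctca
Cxcl10 promoter, chr5:92348890-92349139, minus strand: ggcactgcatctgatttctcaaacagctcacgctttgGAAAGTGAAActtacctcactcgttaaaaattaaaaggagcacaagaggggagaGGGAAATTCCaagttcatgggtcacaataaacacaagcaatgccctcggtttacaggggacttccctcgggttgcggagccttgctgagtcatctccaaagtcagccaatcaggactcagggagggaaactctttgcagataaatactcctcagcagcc
Irf1 promoter, chr11:53769764-53770013, plus strand: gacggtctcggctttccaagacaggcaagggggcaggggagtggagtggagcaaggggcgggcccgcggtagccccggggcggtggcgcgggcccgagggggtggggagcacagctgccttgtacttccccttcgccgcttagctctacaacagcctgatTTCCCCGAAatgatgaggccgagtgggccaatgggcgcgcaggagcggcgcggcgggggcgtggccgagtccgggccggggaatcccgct
Saa3 promoter, chr7:46715677-46715926, minus strand: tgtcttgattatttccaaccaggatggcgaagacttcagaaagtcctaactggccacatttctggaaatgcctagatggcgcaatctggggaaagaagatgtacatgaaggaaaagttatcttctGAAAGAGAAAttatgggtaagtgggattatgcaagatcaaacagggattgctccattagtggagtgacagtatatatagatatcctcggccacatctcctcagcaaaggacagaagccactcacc
Isg15 holds 3 ISRE-like matches, starting 78, 72 and 66 bases before the start site, of which 2 pairs overlap. Gbp2 holds 1 ISRE-like match (59 bases before) and Saa3 also 1 (125 bases). B2m holds an ISRE-like and a kB-like match (139 and 126 bases), as does Cxcl10 (213 and 159 bases), and Irf1 a GAS-like match (90 bases). The window of a second Irf1 start site in the same table, which is not printed, holds no match. As given below, Isg15, Gbp2, B2m and Saa3 were called higher in WT_M1, and Cxcl10 and Irf1 were not called.

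Levels are given as CPM, counts in each 1000000 after TMM scaling, which allows for the share taken by a few abundant transcripts. Every adjusted p is from the edgeR quasi-likelihood test, adjusted by Benjamini-Hochberg over all genes tested, and a gene is called at an adjusted p under 0.05. Csf1r, the M-CSF receptor that marks macrophages, stood at 1321, 1884 and 2192 CPM in WT_M0 and at 1554, 1461 and 1956 CPM in WT_M1, which overlapped (adjusted p 0.834). Both markers given for the LPS and IFN-γ state were called. Saa3, an acute-phase apolipoprotein (chromosome 7, 46711998 to 46715700, GRCm38), stood at 72, 421 and 628 CPM in WT_M0 and at 66544, 69369 and 73120 CPM in WT_M1. Its log2 fold change was 7.54 (SE 1.09, adjusted p 4.35e-05), or 8.14 without WT_M0 replicate 3, and its share of all counts went from at most 0.0675% to at least 5.79%. Il1b, which encodes interleukin 1β (chromosome 2, 129364570 to 129371139), stood at 8.97, 72.6 and 88.2 CPM in WT_M0 and at 372, 545 and 340 CPM in WT_M1 (log2 fold change 2.89, SE 0.686, adjusted p 0.00525). In a fit of the 6 libraries alone Il1b was not called (adjusted p 0.086). For both genes every WT_M1 library was above every WT_M0 library.

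The 6 libraries held 3640881 to 4645148 counts, and their 10 most abundant genes took 13.6% to 14.3% of counts in WT_M0 and 22.9% to 23.3% in WT_M1. The first principal component (67.4% of the variance) separated the groups, and WT_M0 replicate 1 stood apart on the second (26.86 against -4.225 and -20.88, 13.8%). List counts changed with the library left out, so most are followed by the range of calls higher and lower over the 6 fits with 1 library left out, and by the counts without WT_M0 replicate 1. Among the lists for other cell types, neutrophil markers had the highest summed level. Their sums did not overlap between the groups. B cell markers summed to 7.19 to 15 CPM in WT_M0 and 4.28 to 8.73 CPM in WT_M1, with 6 of 10 at 0 counts in all 6 libraries (Ms4a1, Cd79a, Pax5, Fcmr and Iglc2 among them). T and NK cell markers summed to 53.7 to 105 and 18 to 20.8 CPM, with 9 of 14 at 0 (Cd3e, Cd3g, Cd8a and Nkg7 among them). Neutrophil markers summed to 394 to 716 and 754 to 965 CPM with 0 of 10 called by edgeR, dendritic cell markers to 35.2 to 53.5 and 152 to 167 CPM, and fibroblast markers to 52.5 to 70.1 and 56.1 to 105 CPM. Mast cell markers stayed at or under 15.5 CPM and erythroid markers at or under 3.56 CPM. Of the dendritic cell list Bst2 (3.76-fold) and Ccr7 were called higher, and of the fibroblast list the matrix genes Lum and Dcn, with 1 and 2 counts in WT_M0. The B cell gene Ighm (-3.66 log2) and the IL-7 receptor chain Il7r (-1.89 log2) were lower. Il7r lost its call without WT_M0 replicate 1 or any WT_M1 replicate (adjusted p up to 0.126), and Dcn without WT_M0 replicate 2 (adjusted p 0.0568). The part of other cells in the results was not tested.

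Between WT_M1 and WT_M0, 1825 of 11779 genes (15.5%) were called, 943 higher (8.01%) and 882 lower (7.49%). Each count of called list members below stands beside these shares. A list near them is not set apart from all genes. With a log2 fold change of 1 or more in size, 401 were higher and 440 lower, and at 4 or more, 48 were higher and 16 lower. The balance of directions depended on scaling. With total counts in place of TMM, 16.9% of 2603 calls were higher, against 51.7% of 1825, and the median log2 fold change of all genes moved from 0.00 to -0.30. Fold changes below are on the TMM scale. Fewer genes were called with 1 library left out, 1125 without WT_M0 replicate 3 (603 higher, 522 lower), 1118 without WT_M1 replicate 2 (488 lower), 1202 without WT_M1 replicate 3 (573 lower), and 581 higher without WT_M0 replicate 2. Groups did not overlap for 2305 genes with WT_M1 above (19.6%) and 2195 with WT_M1 below (18.6%).

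**Figure D1:**
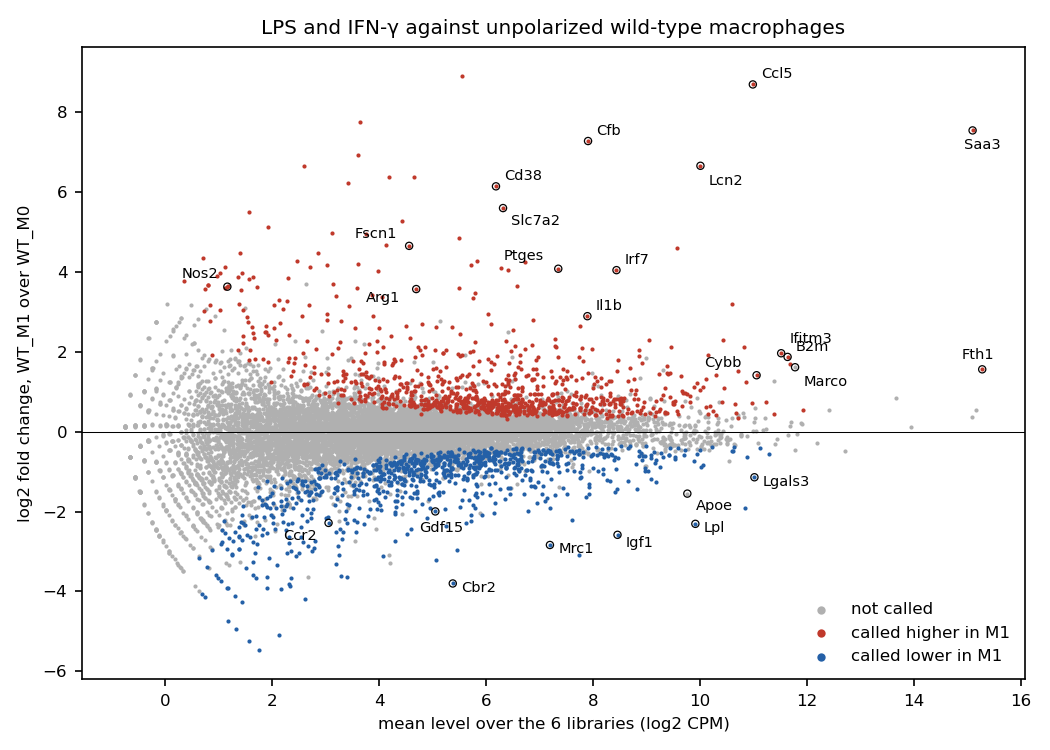
Log2 fold change of WT_M1 over WT_M0 against the mean level over the 6 libraries (log2 CPM), 1 point a gene with counts in both groups, red called higher, blue called lower, grey not called. Saa3 and Fth1 lie at the right edge with log2 fold changes of 7.54 and 1.56, and Marco and Apoe are grey at 1.61 and -1.55.

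Ranked over called genes without overlap whose log2 CPM averaged at least 3, the 15 largest rises, Saa3 included, held secreted proteins, surface enzymes and interferon-linked genes. U90926 had no count in WT_M0 and stood at 958, 1219 and 961 CPM in WT_M1, at least 4390-fold higher against a floor of 3 counts in the WT_M0 group. Ccl5, a chemokine for T cells and monocytes, stood at 3.59, 11.7 and 14.3 CPM in WT_M0 and at 3771, 4200 and 4224 CPM in WT_M1. This was a 414-fold rise (log2 fold change 8.69, SE 0.883, adjusted p 2.87e-07). Cfb, complement factor B of the alternative pathway, rose 155-fold from 1.35, 4.54 and 3.32 CPM to 459, 458 and 514 CPM. Lcn2, a lipocalin that binds bacterial siderophores, rose 101-fold from 26, 17.9 and 16.4 CPM to 2138, 2089 and 1885 CPM. The ranking required that groups not overlap, so that separation is no further evidence. In each of these genes the groups lay far apart against the spread within them. However, 74.3% of the 30-base words near the 3′ end of Cfb also occur in the gene model Gm20547. The next were Il1a, which encodes interleukin 1α (83.3-fold, log2 6.38, or 5.78 without WT_M0 replicate 1 and 8.37 without WT_M0 replicate 3), Slfn1 of the Schlafen family (82.4-fold), Cd38, an NAD-consuming ectoenzyme (70.7-fold), Slc7a2, an arginine transporter (48.5-fold), the class I gene H2-Q7 (38.6-fold, with 6.59% of its 3′ words in other genes) and the vanin gene Vnn3 (31.6-fold). The others had 1 to 3 counts in WT_M0, so they are given as ratios of CPM with 95% exact intervals, which cover counting error only. Serpinb2, plasminogen activator inhibitor 2, had a ratio of 582 (161 to 4814), Draxin, an axon guidance protein, 306 (54.5 to 12134), the stefin gene Stfa3 147 (40.4 to 1224) and Shisa3 85.1 (28.7 to 416). The WT_M0 counts of Serpinb2 and Draxin all came from replicate 3, and those of Stfa3 from replicate 1. Other genes also hold 30.7% of the 3′ words of Serpinb2 and 17.2% of those of Saa3.

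The 15 largest falls by the same rule were smaller than these rises. Cbr2, a carbonyl reductase, fell from 53.4, 82.7 and 92.8 CPM to 7.15, 5.56 and 3.78 CPM (log2 fold change -3.80, SE 0.459, adjusted p 2.62e-06). Mrc1, the mannose receptor CD206, fell from 270, 268 and 229 CPM to 37.6, 32.9 and 37 CPM (log2 fold change -2.84, SE 0.39, adjusted p 1.45e-05). Igf1, insulin-like growth factor 1, fell from 604, 587 and 614 CPM to 102, 81.9 and 117 CPM (log2 fold change -2.58). The rule that chose these 3 genes required that the groups not overlap, so their separation is no further evidence. The gap between the groups was larger than the spread within them. Cav1 (-3.20) and Cavin1 (-3.31), which build caveolae, both fell. The others, as log2 fold changes, were Mettl27 (-3.63), Ephx1, microsomal epoxide hydrolase (-3.60), Crip1 (-3.09), Hmga2, a chromatin protein (-2.95), Atp6v0d2, a proton pump subunit (-2.86), Rnd3 (-2.75), and Slc40a1, the iron exporter ferroportin (-2.56). The small nucleolar RNA Snord118 (-3.10), the snoRNA gene Gm26205 (-2.69) and the pseudogene Gm4617 (-3.10) complete the set. All 3′ words of Gm26205 and Gm4617 occur in other genes too, so their counts are uncertain. Other genes also hold 33% of the 3′ words of Snord118 and 22.6% of those of Cbr2. Hmga2 lost its call without WT_M0 replicate 1 (adjusted p 0.0614), Atp6v0d2 without WT_M0 replicate 3 or WT_M1 replicates 2 or 3 (adjusted p up to 0.0995) and Slc40a1 without WT_M0 replicates 1 or 3 or any WT_M1 replicate (adjusted p up to 0.0934). Gm4617 lost its call without WT_M1 replicate 2 (adjusted p 0.0603). The log2 fold change of Hmga2 was -2.15 without WT_M0 replicate 1, and that of Gm4617 -5.70 without WT_M1 replicate 3.

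Of the 45 gene lists, the type I interferon-stimulated genes held the most called rises. Of 37 tested, 29 were called higher and 0 lower, or 24 higher without WT_M0 replicate 1 and 16 without WT_M0 replicate 3, beside 8.01% of all genes called higher. Their median log2 fold change was 1.72, against 0.00 over all genes. Irf7, which amplifies type I interferon, rose from 37.2, 43.5 and 38.1 CPM to 619, 657 and 687 CPM (log2 fold change 4.05, SE 0.715, adjusted p 0.000387). Ifi205, a DNA-binding protein (4.03), Zbp1, a nucleic acid sensor (3.65), and Ifi44 (3.60) had the next largest log2 fold changes. Isg15, a ubiquitin-like modifier, stood at 52.3, 69.5 and 33.5 CPM and at 272, 261 and 246 CPM (log2 fold change 2.32, adjusted p 0.0138), and Ifitm3, which blocks viral entry, rose 3.9-fold and Oasl1 10.2-fold. Rsad2, the antiviral viperin, stood at 131, 127 and 85.6 CPM and at 186, 201 and 242 CPM, without overlap, and was not called (log2 fold change 0.87, adjusted p 0.502), although it was in a fit of the 6 libraries alone (adjusted p 0.00175). Isg15 lost its call without WT_M0 replicate 3 (adjusted p 0.0753), Ifitm3 without WT_M0 replicate 3 (adjusted p 0.0532) and Oasl1 without WT_M0 replicate 3 (adjusted p 0.0507).

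The IFN-γ receptor and JAK-STAT list had 8 of 22 called higher and 0 lower (median 0.36), 6 to 8 and 0 with 1 library left out (7 and 0 without WT_M0 replicate 1). Jak2, a kinase of the receptor, rose 2.67-fold, from 18.6, 25.1 and 32.2 CPM to 66.8, 68.9 and 67 CPM (log2 fold change 1.42, SE 0.208, adjusted p 1.5e-05). Stat2, a transcription factor of type I interferon signalling, rose 2.13-fold. Stat2 lost its call without WT_M0 replicate 3 or WT_M1 replicate 3 (adjusted p up to 0.0628). Irf1, a transcription factor that IFN-γ induces, stood at 17.3, 38 and 48 CPM and at 44.7, 52.5 and 48.3 CPM, which overlapped, and was not called (log2 fold change 0.50, adjusted p 0.229). Batf2, an IFN-γ inducible transcription factor, rose 2.73-fold. The feedback inhibitors had 4 of 14 called higher and 2 lower, 3 to 4 and 1 to 2 with 1 library left out (3 and 2 without WT_M0 replicate 1). Usp18, which blocks the type I interferon receptor, rose 5.49-fold, and the phosphatase gene Ptpn1 1.61-fold. Socs1, the main brake on IFN-γ signalling, stood at 3.14, 5.5 and 1.53 CPM and at 16.4, 18.6 and 9.06 CPM, with no overlap (log2 fold change 2.09, SE 0.506, adjusted p 0.00507), and Socs3 was called at 2.99-fold. The falls were Socs6 (-0.94 log2) and the phosphatase gene Ptpn2 (-0.79 log2). Batf2 lost its call without WT_M0 replicate 1 or WT_M1 replicate 3 (adjusted p up to 0.094), Socs3 without WT_M0 replicates 1 or 3 or WT_M1 replicates 1 or 2 (adjusted p up to 0.122) and Ptpn2 without WT_M0 replicate 3 or WT_M1 replicates 1 or 3 (adjusted p up to 0.0868).

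IFN-γ inducible GTPases, which attack vacuoles that hold pathogens, had 10 of 19 called higher and 0 lower (median 1.44), 5 to 10 and 0 with 1 library left out (5 and 0 without WT_M0 replicate 1). The count was also 5 without WT_M0 replicate 3. Gbp6 rose from 0.449, 2.87 and 2.04 CPM to 20.9, 25.2 and 18.6 CPM (log2 fold change 3.59, adjusted p 0.000102), although 96.9% of its 3′ words also occur in Gbp10, Gbp9 and a further gene model. Mx1, an antiviral GTPase, rose 4.79-fold. Gbp2 stood at 9.2, 23.4 and 11.8 CPM and at 53.4, 51.9 and 68.2 CPM (log2 fold change 1.97, adjusted p 0.00932). Gbp4 had 2 counts in WT_M0, all from replicate 2, and 34 in WT_M1, a ratio of 19.2 (95% exact interval 4.92 to 165). Gbp2 lost its call without WT_M0 replicates 1 or 3 (adjusted p up to 0.0529), and Gbp4 without WT_M0 replicates 1 or 3 or WT_M1 replicate 3 (adjusted p up to 0.0684).

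Promoter windows, 250 bases before to 50 after each RefSeq start, were matched by symbol for 8915 of the 11779 genes tested, and a gene was counted if any of its windows held the motif. The ISRE-like motif stood in 4.11% of all genes, 9.02% of called rises and 2.96% of called falls. The GAS-like motif stood in 8.19%, 10.4% and 7.84% of them, and the kB-like motif in 1.84%, 3.23% and 1.04%. The lists, called or not, held the ISRE-like motif in 10 of 11 IFN-γ inducible GTPases, 16 of 29 type I interferon-stimulated genes and 5 of 19 class I genes. It stood in 2 of 16 chemokine ligands, 1 of 11 acute-phase and antiprotease genes and 0 of 15 NF-kB genes. These shares describe letters in a window and were not tested.

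**Figure D2:**
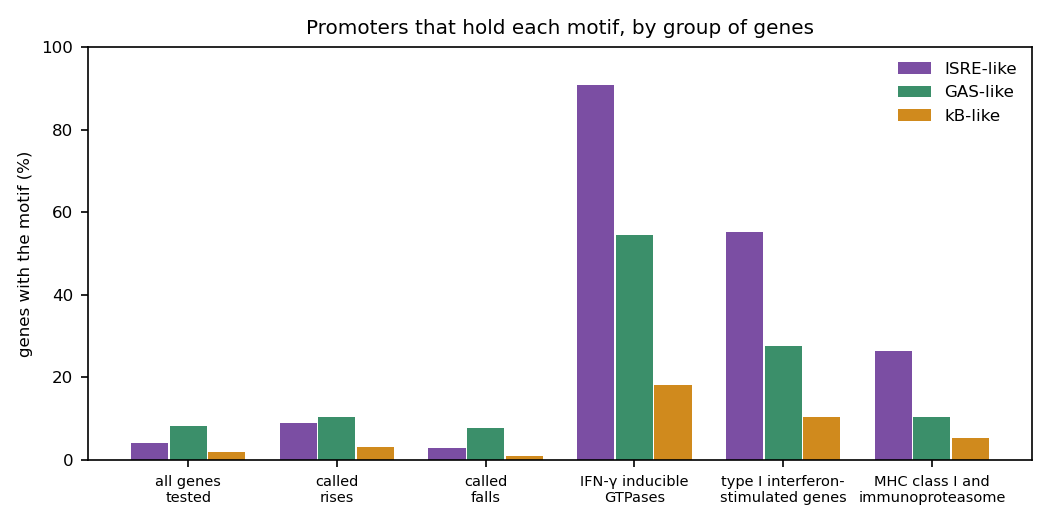
Share of genes (%, bars) whose promoter windows hold the ISRE-like, GAS-like or kB-like motif, for all genes tested, called rises, called falls and 3 gene lists, called or not. The ISRE-like share is 4.11% over all genes and 90.9% in the 11 IFN-γ inducible GTPases with a window.

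Most genes of class I antigen presentation rose. Of 22 genes of MHC class I and the immunoproteasome, which cuts peptides for it, 17 were called higher and 0 lower (median 1.43), 14 to 16 and 0 with 1 library left out (15 and 0 without WT_M0 replicate 1). H2-K1, a classical heavy chain, rose from 360, 521 and 549 CPM to 1830, 1716 and 1905 CPM (log2 fold change 1.93, SE 0.184, adjusted p 1.63e-08). B2m, the light chain, rose 3.66-fold, from 1334, 1394 and 1388 CPM to 4916, 4734 and 5421 CPM. The groups of both were far apart. H2-T22 rose 7.74-fold, H2-D1 2.89-fold, the peptide transporter Tap1 3.31-fold and the immunoproteasome subunits Psmb8 2.45-fold and Psmb9 2.28-fold. H2-Q6 had 0 counts in WT_M0 and 10 in WT_M1, at least 3.77-fold higher. Class I genes share sequence, 68.9% of the 3′ words for H2-Q6, 50% for H2-T22, 41.4% for H2-D1 and 28.6% for H2-K1, so the split between them is uncertain. H2-Q6 lost its call without any WT_M0 replicate or WT_M1 replicates 1 or 3 (adjusted p up to 0.0806).

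Of 15 genes of class II presentation, 1 was called, beside 15.5% of all genes. It was March1, a ubiquitin ligase that removes class II from the surface (2.42-fold, adjusted p 0.000465). Ciita, the class II master regulator, had 1 count in WT_M0 and 0 in WT_M1. H2-Ab1, a class II chain, stood at 9.42, 37.8 and 40.9 CPM and at 62.6, 59.6 and 68 CPM, with no overlap, but was not called (log2 fold change 1.12, adjusted p 0.351). Cd74, the invariant chain, stood at 10.3, 44 and 60.1 CPM and at 20.9, 17.8 and 26.2 CPM, which overlapped (adjusted p 0.47). Ligands and receptors shown to T cells had 6 of 17 called higher and 1 lower, 4 to 6 and 0 to 1 with 1 library left out (4 and 1 without WT_M0 replicate 1). Cd274, the checkpoint ligand PD-L1, rose from 25.1, 28 and 26.1 CPM to 86.1, 93 and 90.6 CPM (log2 fold change 1.77, adjusted p 0.000513), and Cd40, the receptor for T cell help, rose 2.58-fold. Slamf7 rose 2.62-fold and Slamf8 was called at 2.68-fold. Cd86, a CD28 ligand, stood at 10.3, 14.1 and 8.95 CPM and at 4.47, 10.9 and 9.06 CPM and was not called (adjusted p 0.544). The single fall was Tnfsf4, the OX40 ligand, at 3.59 CPM or less in every library. Slamf8 lost its call without WT_M0 replicate 1 or WT_M1 replicates 1 or 3 (adjusted p up to 0.0858), and Tnfsf4 without WT_M0 replicate 1 or WT_M1 replicate 3 (adjusted p up to 0.0762).

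Secreted acute-phase and antiprotease genes had a median of 3.48, with 10 of 15 called higher and 0 lower. Slpi, an inhibitor of neutrophil elastase, rose 24.1-fold, from 48.2, 66 and 66.7 CPM to 1371, 1845 and 1141 CPM. Haptoglobin Hp rose from 4.93, 9.32 and 11.5 CPM to 156, 132 and 154 CPM, and ceruloplasmin Cp from 6.28, 8.12 and 15.1 CPM to 164, 154 and 165 CPM (17.2-fold and 16.4-fold). All 3 had no overlap between the groups. Wfdc17 rose 9.23-fold, and Saa1 had 0 counts in WT_M0 and 50 in WT_M1, at least 18.8-fold higher. The complement list had 4 of 14 called higher and 1 lower, 4 and 0 to 1 with 1 library left out (4 and 1 without WT_M0 replicate 1). Beside Cfb, the rises were C3 (2.41-fold), Itgam, a chain of complement receptor 3 (1.88-fold), and properdin Cfp (1.83-fold). C3 was not called in a fit of the 6 libraries alone (adjusted p 0.0586).

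**Figure D3:**
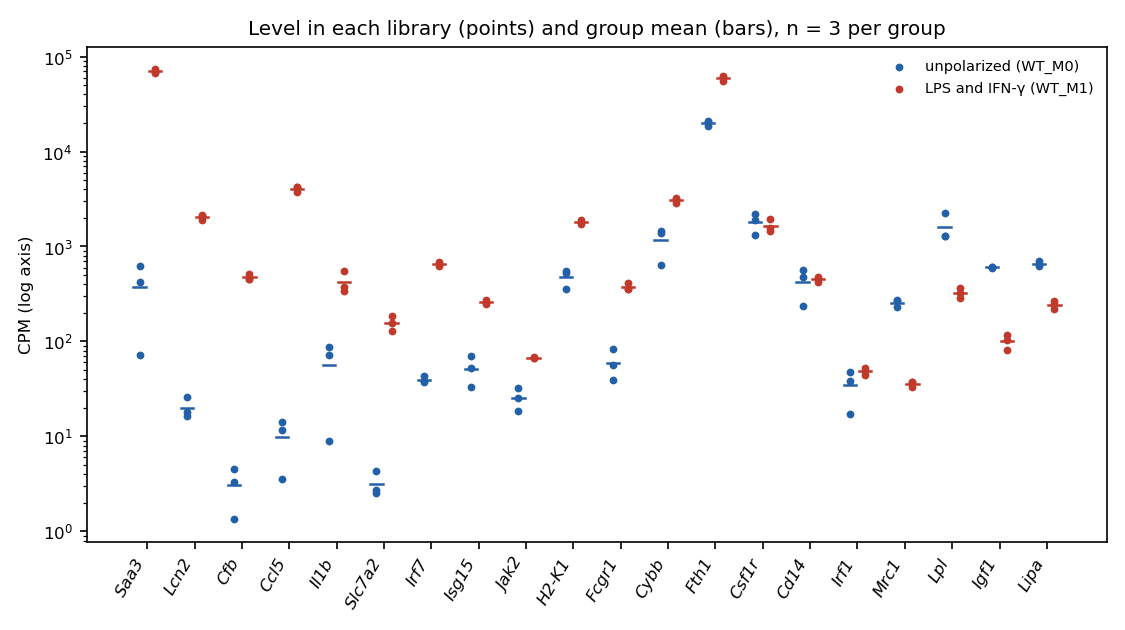
CPM in each library (points, log axis) and group mean (bars) of 20 genes in WT_M0 (blue) and WT_M1 (red), n = 3 per group. Csf1r, Cd14 and Irf1 overlap between the groups, and WT_M0 replicate 1 is the lowest blue point of Saa3 (72 CPM) and Il1b (8.97 CPM).

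The IL-1 family and inflammasome had 6 of 17 called higher and 0 lower, 5 to 6 and 0 with 1 library left out (5 and 0 without WT_M0 replicate 1). Beside Il1a and Il1b, Il18bp, the secreted inhibitor of IL-18, rose 6.07-fold, the inflammasome adaptor Pycard 1.93-fold, and Casp1, the protease that matures IL-1β, 1.53-fold. Nlrp3, the sensor, stood at 21.8, 47.1 and 28.4 CPM and at 19.1, 27.3 and 18.9 CPM, which overlapped (adjusted p 0.334). The TNF, IL-6, IL-10 and IL-12 family list had 3 of 14 called higher and 0 lower, or 1 higher whichever library was left out. Tnf stood at 187, 238 and 236 CPM in WT_M0 and at 342, 440 and 272 CPM in WT_M1. Its groups did not overlap, yet it was not called (log2 fold change 0.67, SE 0.377, adjusted p 0.251). Il6 stayed at or under 2.38 CPM in every library (adjusted p 0.6). Il12b, a subunit of IL-12, stood at 0.449, 1.43 and 3.32 CPM and at 5.96, 4.77 and 4.78 CPM (adjusted p 0.107). Il10, the anti-inflammatory cytokine, stood at 7.18, 6.93 and 12 CPM and at 20, 29.1 and 17.4 CPM (adjusted p 0.119). Neither overlapped between the groups. In a fit of the 6 libraries alone Tnf (adjusted p 0.0146), Il12b (0.0485) and Il10 (0.00303) passed the threshold. The 3 called were Tnfsf13b, the B cell factor BAFF (9.03-fold, at 7.45 CPM or less), Ebi3, a subunit of IL-27 (1.81-fold), and Tgfb1 (1.48-fold). Casp1 lost its call without WT_M0 replicates 2 or 3 or WT_M1 replicates 1 or 2 (adjusted p up to 0.189), Tnfsf13b without WT_M0 replicate 3 (adjusted p 0.0555) and Ebi3 without WT_M0 replicates 1 or 2 or any WT_M1 replicate (adjusted p up to 0.116). Tgfb1 lost its call without any WT_M0 replicate or any WT_M1 replicate (adjusted p up to 0.136).

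The chemokine list had 5 of 24 called higher and 0 lower (median 0.37), 3 to 4 and 0 to 1 with 1 library left out (4 and 1 without WT_M0 replicate 1), Ccl5 being the furthest. Cxcl9, an IFN-γ inducible ligand of CXCR3, had 3 counts in WT_M0, all from replicate 3, and 45 in WT_M1, a ratio of 16.9 (95% exact interval 5.44 to 85.2) at 5.54 CPM or less. Cxcl10, another such ligand, stood at 9.2, 38.5 and 24.8 CPM and at 17.6, 32.6 and 16.9 CPM, which overlapped (adjusted p 0.941). The neutrophil chemokines Cxcl3 (10.6-fold, log2 3.41, or 4.05 without WT_M0 replicate 2) and Cxcl5 (12.4-fold, log2 3.63, or 3.04 without WT_M0 replicate 1 and 5.18 without WT_M0 replicate 3), and Ccl22, a ligand of CCR4 (9.73-fold, log2 3.28, or 2.68 without WT_M0 replicate 1 and 3.96 without WT_M0 replicate 2), were called at 24.9 CPM or less. Cxcl3 lost its call without WT_M0 replicate 3 (adjusted p 0.0519), Cxcl5 without WT_M0 replicates 1 or 2 or WT_M1 replicates 1 or 2 (adjusted p up to 0.141) and Ccl22 without WT_M0 replicates 1 or 3 or WT_M1 replicate 3 (adjusted p up to 0.0848). Ccl2, the monocyte chemoattractant, stood at 656, 93.2 and 50.6 CPM and at 705, 837 and 489 CPM, and the groups overlapped through WT_M0 replicate 1 (adjusted p 0.4). Chemokine receptors had 3 of 14 called higher and 1 lower, 2 to 3 and 1 with 1 library left out. Ccr2, the receptor of CCL2, fell from 5.83, 18.9 and 13.8 CPM to 2.38, 1.85 and 3.52 CPM (log2 fold change -2.28, adjusted p 0.00198). Cmklr1, the chemerin receptor, rose 2.37-fold, and Ccr1 2.83-fold. Ccr7, the lymph node homing receptor, had 2 counts in WT_M0, all from replicate 2, and 27 in WT_M1, a ratio of 15.2 (95% exact interval 3.83 to 132). Cx3cr1, the fractalkine receptor, stood at 112, 293 and 325 CPM and at 306, 270 and 345 CPM, which overlapped (adjusted p 0.73). Ccr1 lost its call without WT_M0 replicates 2 or 3 or any WT_M1 replicate (adjusted p up to 0.125).

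The nitric oxide, arginine and itaconate list had 5 of 16 called higher and 1 lower, 4 to 5 and 0 with 1 library left out (5 and 0 without WT_M0 replicate 1). Nos2, inducible nitric oxide synthase (chromosome 11, 78920787 to 78960254), had 3 counts in WT_M0, all from replicate 3, and 37 in WT_M1. This is a ratio of 13.9 (95% exact interval 4.41 to 70.6), at 4.77 CPM or less (adjusted p 0.00717). Gch1, which makes the cofactor tetrahydrobiopterin, rose 2.48-fold from 54.3, 54.5 and 51.9 CPM to 128, 150 and 121 CPM. Arg1, arginase, which competes for the same substrate, rose too, from 6.06, 3.58 and 2.04 CPM to 50.1, 51.7 and 40.3 CPM (log2 fold change 3.57, SE 0.618, adjusted p 0.000295). Acod1, which makes itaconate, stood at 189, 427 and 360 CPM and at 953, 1032 and 848 CPM, without overlap, and was not called (log2 fold change 1.54, SE 0.542, adjusted p 0.0552), although DESeq2 called it (adjusted p 0.0222). Beside Slc7a2, Slc25a1, the citrate carrier, was called higher (1.72-fold) and Slc7a1, another arginine transporter, lower (-0.71 log2). Slc25a1 lost its call without WT_M0 replicates 2 or 3 or WT_M1 replicate 3 (adjusted p up to 0.185), and Slc7a1 without any WT_M0 replicate or any WT_M1 replicate (adjusted p up to 0.176).

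Oxidant genes had 8 of 20 called higher and 4 lower, 5 to 8 and 2 to 3 with 1 library left out (5 and 3 without WT_M0 replicate 1). Cybb, the catalytic subunit of the phagocyte oxidase, rose from 638, 1377 and 1470 CPM to 3242, 3173 and 2870 CPM (log2 fold change 1.41, adjusted p 0.000368), and its partner Rac2 rose 2.69-fold. Prdx5, a peroxiredoxin, rose 4.93-fold, Hmox1, heme oxygenase, 3.27-fold and Sod2, the mitochondrial superoxide dismutase, 2.51-fold. Sod3, the extracellular form, had 1 count in WT_M0 and 25 in WT_M1, a ratio of 28.2 (95% exact interval 4.62 to 1159). The falls were Gclm (-1.62 log2) and Gclc (-1.23), the subunits of the enzyme that limits glutathione synthesis, catalase Cat (-1.30) and the thioredoxin reductase Txnrd1 (-0.79). Sod2 lost its call without WT_M0 replicate 1 (adjusted p 0.0554), Sod3 without WT_M1 replicate 2 (adjusted p 0.0551) and Gclc without WT_M0 replicate 2 or WT_M1 replicate 3 (adjusted p up to 0.0684). Txnrd1 lost its call without any WT_M0 replicate or any WT_M1 replicate (adjusted p up to 0.124).

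Genes that sense and signal LPS had 3 of 22 called higher and 2 lower, 1 to 2 and 0 to 2 with 1 library left out (1 and 2 without WT_M0 replicate 1). Over all genes 8.01% were called higher and 7.49% lower. Tlr4 stood at 23.1, 29.1 and 19.7 CPM and at 17.3, 17.2 and 26.9 CPM (log2 fold change -0.22, adjusted p 0.602). Cd14, its co-receptor, stood at 239, 568 and 472 CPM and at 450, 479 and 422 CPM (log2 fold change 0.08, adjusted p 0.905), with the sign turned to -0.23 by scaling on total counts and to -0.21 without WT_M0 replicate 1. Both overlapped between the groups. Myd88, the central adaptor, was called at 1.77-fold (adjusted p 0.0585 with total counts), Ly96, which encodes MD-2, at 1.89-fold, and the adaptor Ticam2 at 1.79-fold. The kinase Irak4 (-0.60 log2) and the adaptor Tab2 (-0.47) were called lower. The Toll-like receptor list had 3 of 9 called higher and 0 lower, 1 to 4 and 0 with 1 library left out (1 and 0 without WT_M0 replicate 1). Tlr7, an RNA sensor in endosomes, rose from 80.5, 52.8 and 51.4 CPM to 155, 181 and 212 CPM (log2 fold change 1.57, adjusted p 1.98e-05), Unc93b1, which carries such receptors to endosomes, 2.08-fold and Tlr3 1.86-fold. Ly96 lost its call without WT_M0 replicates 1 or 3 or any WT_M1 replicate (adjusted p up to 0.145), Ticam2 without WT_M0 replicates 1 or 2 or any WT_M1 replicate (adjusted p up to 0.247) and Irak4 without WT_M0 replicate 3 or WT_M1 replicates 1 or 2 (adjusted p up to 0.121). Tab2 lost its call without WT_M0 replicate 3 (adjusted p 0.0541), Unc93b1 without WT_M0 replicate 1 or any WT_M1 replicate (adjusted p up to 0.114) and Tlr3 without WT_M0 replicates 1 or 2 or WT_M1 replicate 3 (adjusted p up to 0.0896).

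NF-kB subunits and inhibitors had 1 of 18 called higher and 3 lower, 0 to 1 and 2 to 3 with 1 library left out (0 and 3 without WT_M0 replicate 1). Among all genes tested 8.01% were called higher and 7.49% lower. Nfkbia, an inhibitor that NF-kB itself induces, stood at 1075, 2060 and 2107 CPM and at 1517, 1499 and 1241 CPM, which overlapped (adjusted p 0.442, or 0.0488 with total counts, log2 fold change -0.61). Tnip3, an inhibitor of the pathway, fell from 113, 177 and 164 CPM to 71.8, 80.3 and 81.1 CPM (log2 fold change -0.96, adjusted p 0.00782). The subunit gene Rel (-1.18 log2) and Nfkbiz, a nuclear cofactor (-1.22 log2, with overlapping groups), were called lower, and Traf1 was called at 2.05-fold. Rel lost its call without WT_M1 replicate 2 (adjusted p 0.0543), Nfkbiz without WT_M0 replicates 2 or 3 or WT_M1 replicates 1 or 3 (adjusted p up to 0.114) and Traf1 without WT_M0 replicate 1 or any WT_M1 replicate (adjusted p up to 0.145).

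Fc gamma receptors, which bind IgG-coated targets, had 4 of 7 called higher and 1 lower (median 1.69), 3 to 4 and 1 with 1 library left out. Fcgr1, the high-affinity receptor, rose from 82.5, 56.6 and 38.9 CPM to 355, 355 and 410 CPM (log2 fold change 2.65, adjusted p 0.00397). Fcgr2b, the inhibitory receptor, rose 6.9-fold, Fcer1g, the shared signalling chain, 3.22-fold and Fcgr4 4.38-fold, and Fcrls, an Fc receptor-like gene, fell (-1.98 log2). Adgre1, the macrophage marker F4/80, rose from 960, 1184 and 1148 CPM to 2729, 2746 and 2359 CPM (log2 fold change 1.25, adjusted p 0.00419). The eicosanoid list had 4 of 15 called higher and 1 lower, 3 to 4 and 1 with 1 library left out. Ptges, the inducible prostaglandin E synthase, rose 16.9-fold from 7.4, 19.8 and 27.6 CPM to 328, 338 and 258 CPM, Pla2g7 4.3-fold, Ptges2 2.31-fold and Alox5ap, the partner of 5-lipoxygenase, 1.32-fold, and Ptger4, a prostaglandin E2 receptor, fell (-1.63 log2). Ptgs2, the cyclooxygenase upstream, was not called (adjusted p 0.556). Of the Schlafen family, Slfn1 and Slfn4 were called among 8 tested, Slfn4 at 3.71 CPM or less (8.29-fold, log2 3.05, or 6.43 without WT_M0 replicate 1). Fcgr4 lost its call without WT_M0 replicates 2 or 3 (adjusted p up to 0.0616), Alox5ap without WT_M0 replicates 2 or 3 or any WT_M1 replicate (adjusted p up to 0.17) and Slfn4 without WT_M0 replicates 2 or 3 or WT_M1 replicates 2 or 3 (adjusted p up to 0.143).

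Glycolysis and hypoxia genes had 17 of 28 called higher and 0 lower (median 0.76), 14 to 16 and 0 with 1 library left out (16 and 0 without WT_M0 replicate 1). Pfkfb3, which makes the activator of phosphofructokinase, rose from 26, 37.5 and 41.9 CPM to 138, 140 and 148 CPM (log2 fold change 2.01, adjusted p 0.000137). Hexokinase Hk3 rose 2.67-fold, phosphofructokinase Pfkl 2.62-fold, the lactate exporter Slc16a3 2.58-fold and lactate dehydrogenase Ldha 2.17-fold. Adm, a hypoxia-induced peptide, rose 11.8-fold at 4.53 CPM or less (log2 3.56, or 4.81 without WT_M0 replicate 3). Hk3 was not called in a fit of the 6 libraries alone (adjusted p 0.052). Nuclear genes of oxidative phosphorylation had 0 of 32 called by edgeR (median 0.14), or 2 higher without WT_M0 replicate 1. The TCA cycle had 1 of 23 called, the malate dehydrogenase gene Mdh2 (1.71-fold). The metal list had 5 of 16 called higher and 4 lower, 4 to 6 and 1 to 4 with 1 library left out (6 and 1 without WT_M0 replicate 1). Fth1, the ferritin heavy chain, rose from 21149, 20655 and 18534 CPM to 60339, 62589 and 55210 CPM (log2 fold change 1.56, SE 0.165, adjusted p 6.55e-08), beside rises of Lcn2, Cp and Hmox1 and of Slc11a1, a metal transporter of phagosomes (1.6-fold). With Slc40a1, the falls were metallothioneins Mt1 (-1.23 log2) and Mt2 (-1.90, or -1.15 without WT_M0 replicate 1) and Steap3, an iron reductase (-0.85). Mdh2 lost its call without WT_M0 replicates 2 or 3 or WT_M1 replicate 3 (adjusted p up to 0.0768), Slc11a1 without WT_M0 replicates 2 or 3 or WT_M1 replicates 1 or 2 (adjusted p up to 0.144) and Mt2 without WT_M0 replicate 1 or any WT_M1 replicate (adjusted p up to 0.25). Steap3 lost its call without WT_M0 replicate 1 or WT_M1 replicate 2 (adjusted p up to 0.0759).

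Lipid-associated macrophage genes had 0 of 18 called higher and 8 lower (median -0.70), or 2 higher and 7 lower (median -0.46) without WT_M0 replicate 1 and 5 lower without WT_M1 replicate 2. Lpl, lipoprotein lipase, fell from 2233, 1304 and 1278 CPM to 322, 366 and 285 CPM (log2 fold change -2.31, adjusted p 1.12e-05). Cd9 (-2.28 log2), osteopontin Spp1 (-2.22), the lysosomal lipase Lipa (-1.43), the lipid receptor Trem2 (-1.15) and galectin 3, Lgals3 (-1.14), were also called lower. Apoe, a lipid carrier, stood at 802, 1397 and 1689 CPM and at 444, 416 and 468 CPM, without overlap, and was not called (log2 fold change -1.55, SE 0.803, adjusted p 0.21), although it was in a fit of the 6 libraries alone (adjusted p 0.0133). The LXR and efflux list had 2 of 17 called higher and 2 lower, 2 and 1 to 3 with 1 library left out (2 and 3 without WT_M0 replicate 1), with Npc2, a lysosomal cholesterol carrier (1.64-fold), and the LXRβ gene Nr1h2 (1.64-fold, adjusted p 0.113 with total counts) higher and Lpl and Mylip (-2.04 log2) lower. Sterol synthesis had 0 of 22 called by edgeR (median -0.41). Lysosome genes had 7 of 31 called higher and 2 lower, 4 to 7 and 1 to 2 with 1 library left out (7 and 1 without WT_M0 replicate 1), the cathepsins Ctsz (2.17-fold), Ctsc (2.12-fold) and Ctsh (1.84-fold) rising furthest, and Lipa and the galactosidase Gla (-0.74 log2) lower. Scavenger receptors had 2 of 20 called higher and 3 lower, 1 to 2 and 1 to 2 with 1 library left out (2 and 1 without WT_M0 replicate 1). Both this list and the LXR list stand beside 8.01% of all genes called higher and 7.49% lower. Msr1 (2.34-fold) and Olr1, a receptor of oxidized LDL (6.2-fold), were higher, and Mrc1, Colec12 (-2.61 log2, or -3.62 without WT_M1 replicate 1) and Lrp1 (-0.57) lower. Marco, another scavenger receptor, stood at 1171, 1963 and 2070 CPM and at 4923, 5469 and 5539 CPM, without overlap, and was not called (log2 fold change 1.61, adjusted p 0.0876), although DESeq2 called it (adjusted p 0.0313). Trem2 lost its call without WT_M1 replicate 2 (adjusted p 0.0527), Lgals3 without WT_M0 replicate 1 or any WT_M1 replicate (adjusted p up to 0.0883) and Mylip without WT_M1 replicate 2 (adjusted p 0.0788). Gla lost its call without WT_M0 replicates 1 or 2 or any WT_M1 replicate (adjusted p up to 0.118), Olr1 without WT_M0 replicate 3 (adjusted p 0.0528) and Colec12 without any WT_M0 replicate or WT_M1 replicates 2 or 3 (adjusted p up to 0.143). Lrp1 lost its call without any WT_M0 replicate or any WT_M1 replicate (adjusted p up to 0.153).

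Alternative activation markers had 3 of 21 called higher and 3 lower, 2 to 3 and 3 with 1 library left out (2 and 3 without WT_M0 replicate 1). Among all genes tested 8.01% were called higher and 7.49% lower. Beside Arg1 and Ccl22, Il4ra, the IL-4 receptor chain, rose 2.57-fold from 170, 123 and 147 CPM to 335, 364 and 434 CPM. Beside Mrc1, the transcription factor gene Klf4 fell (-1.17 log2), and Pparg had 28 counts in WT_M0 and 0 in WT_M1, at least 8.25-fold lower. Retnla, a marker of the IL-4 state, stayed at or under 3.28 CPM in both groups (adjusted p 0.734). Metalloproteinases and their inhibitors had 1 of 16 called, Timp2 (-1.75 log2), and without WT_M0 replicate 1 had 2 higher and 1 lower.

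Cell cycle genes had 2 of 43 called higher and 18 lower (median -0.87), beside 7.49% of all genes called lower. With 1 library left out 11 to 17 were called lower, the fewest without WT_M1 replicate 2. Mki67, the proliferation antigen, fell from 194, 234 and 272 CPM to 77.8, 74.5 and 82.1 CPM (log2 fold change -1.58, SE 0.311, adjusted p 0.000804), and Top2a, topoisomerase II, from 443, 495 and 568 CPM to 199, 153 and 174 CPM. The mitosis genes Ccnb2 (-2.08 log2), Hmmr (-1.92) and Cenpf (-1.69) fell furthest. The rises were the cyclins Ccnd3 (2.52-fold) and Ccnd2 (2.15-fold). In bulk samples, fewer dividing cells and less RNA per cell cannot be told apart. The BCL2 family and cell death list had 3 of 26 called higher and 5 lower, 3 to 4 and 3 to 4 with 1 library left out (4 and 4 without WT_M0 replicate 1). The rises were the survival genes Bcl2a1a (19.5-fold), Bcl2a1d (6.19-fold) and Bcl2a1b (4.17-fold), which share 75.7%, 97.6% and 91.9% of their 3′ words with other genes. The lower ones were the pro-death genes Bcl2l11 (-1.28 log2), Bbc3 (-0.96) and Pmaip1 (-2.28, or -3.68 without WT_M1 replicate 3) and the survival genes Xiap (-0.89) and Mcl1 (-0.47, with overlapping groups). Ccnd2 lost its call without WT_M0 replicates 2 or 3 or any WT_M1 replicate (adjusted p up to 0.213), Pmaip1 without WT_M0 replicate 1 or WT_M1 replicates 1 or 2 (adjusted p up to 0.0984) and Bbc3 without WT_M0 replicate 3 (adjusted p 0.0772). Mcl1 lost its call without WT_M0 replicates 2 or 3 or WT_M1 replicates 2 or 3 (adjusted p up to 0.141).

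The p53 target list had 0 of 23 called higher and 8 lower (median -0.47), or 3 to 5 lower with 1 library left out, the fewest without WT_M1 replicate 2. Trp53 itself stood at 13.2, 10.8 and 9.2 CPM and at 9.54, 7.42 and 7.3 CPM, which overlapped (adjusted p 0.469). Trp53inp1 fell from 34.8, 44.2 and 39.6 CPM to 8.64, 6.09 and 7.3 CPM and Gdf15, a stress cytokine, from 74, 42.3 and 39.4 CPM to 14.6, 11.1 and 13.3 CPM (adjusted p 0.00075 and 5.97e-05). Ddit4l was called lower at 4.93 CPM or less (-2.51 log2). Cdkn1a, the p21 gene, stood at 1114, 865 and 803 CPM and at 687, 609 and 719 CPM, without overlap, and was not called (adjusted p 0.269), although it was in a fit of the 6 libraries alone (adjusted p 0.00853). AP-1 and immediate early genes had 6 of 25 called higher and 5 lower, 4 to 5 and 3 to 5 with 1 library left out (4 and 3 without WT_M0 replicate 1). Batf rose 5.12-fold and Dusp6, which switches off ERK, 2.61-fold (log2 1.38, or 2.02 without WT_M0 replicate 1), and Maff was called at 2.06-fold. Fos (-1.20 log2), Klf4, Klf6 (-0.99), Jun (-0.42) and Fosl1 (-1.94, with overlapping groups, or -1.06 without WT_M0 replicate 1) were lower. Dusp6 was not called in a fit of the 6 libraries alone (adjusted p 0.0968). The heat shock and unfolded protein list had 2 of 22 called higher and 3 lower, 1 to 2 and 0 to 2 with 1 library left out (2 and 1 without WT_M0 replicate 1). Among all genes tested 8.01% were called higher and 7.49% lower. Ddit3, the stress factor CHOP, rose 2.74-fold, and Hspa8 was called at 1.32-fold, with 72.1% of its 3′ words found in other genes. Herpud1 (-1.11 log2), Hsp90b1 (-0.59) and Atf4 (-0.55) were called lower. Ddit4l lost its call without any WT_M0 replicate or any WT_M1 replicate (adjusted p up to 0.176), Maff without WT_M0 replicates 1 or 3 or WT_M1 replicates 2 or 3 (adjusted p up to 0.247) and Fosl1 without WT_M0 replicates 1 or 2 or any WT_M1 replicate (adjusted p up to 0.353). Jun lost its call without WT_M0 replicates 1 or 3 or any WT_M1 replicate (adjusted p up to 0.229), Hspa8 without WT_M0 replicates 2 or 3 or WT_M1 replicates 2 or 3 (adjusted p up to 0.102) and Herpud1 without WT_M0 replicate 2 (adjusted p 0.0603). Hsp90b1 lost its call without WT_M0 replicates 1 or 2 or WT_M1 replicates 2 or 3 (adjusted p up to 0.101), and Atf4 without any WT_M0 replicate or any WT_M1 replicate (adjusted p up to 0.136).

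**Figure D4:**
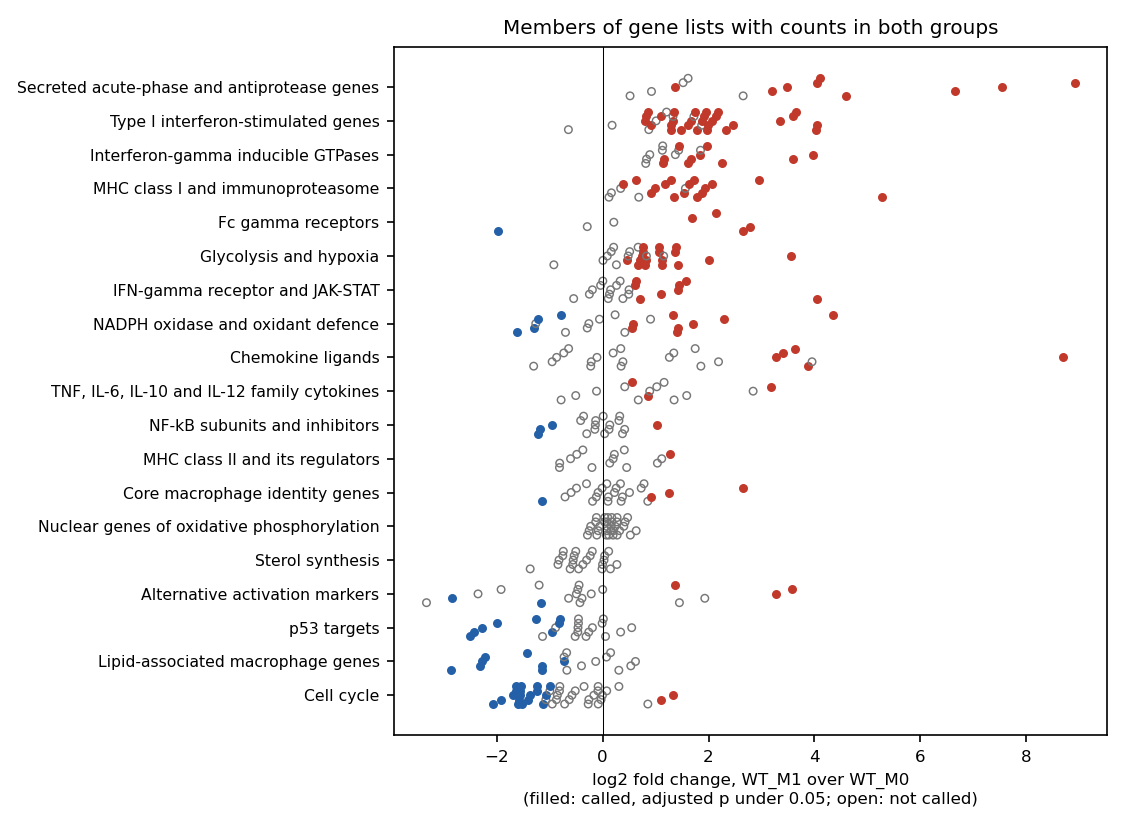
Log2 fold change of WT_M1 over WT_M0 for members of 19 gene lists with counts in both groups, 1 point a gene, filled where called (red higher, blue lower) and open where not. The acute-phase, interferon and class I lists lie mostly to the right of 0, and the cell cycle list mostly to the left, with 18 of 43 called lower.

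The response was then compared with that of p53 knockout cells, by a test of the difference between the changes (KO_M1 minus KO_M0, less WT_M1 minus WT_M0). A total of 2442 genes (20.7%) were called, 1322 with a more positive change in the knockout (11.2%) and 1120 with a more negative one (9.51%). Both changes were tested in the same fit and share no library. The titles and descriptions of the KO libraries give the knockout, but their genotype field reads wild-type. Trp53 itself stood at 3.14, 3.39 and 6.49 CPM in KO_M0 and at 7.97, 9.11 and 3.79 CPM in KO_M1, against 13.2, 10.8 and 9.2 CPM in WT_M0 and 9.54, 7.42 and 7.3 CPM in WT_M1. No label gives the part of Trp53 that is deleted, so this 3′ count does not check the label.

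Of the type I interferon-stimulated genes 3 of 37 were called, beside the 20.7% of all genes. They were Ifit2 (difference 2.75, adjusted p 0.0386), Usp18 (1.82, adjusted p 0.0248) and Ly6e (-1.38, adjusted p 0.0113), and of the 19 IFN-γ inducible GTPases 1 was called, Gbp3 (1.39, adjusted p 0.0419). These were named after their values were seen. With 1 of the 12 libraries left out, Ifit2 lost its call in 9 of 12 fits (adjusted p up to 0.0997), Usp18 in 4 of 12 (0.0744) and Gbp3 in 7 of 12 (0.216). H2-K1 had means of 538 CPM in KO_M0 and 1476 CPM in KO_M1, with a difference of -0.47 log2 (SE 0.251, adjusted p 0.188). A difference that was not called does not show that the changes were alike.

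Several inflammatory genes had low means in KO_M0 beside WT_M0. Marco had a mean of 16.2 CPM in KO_M0 against 1735 CPM in WT_M0, and 2696 against 5310 CPM in the M1 groups (difference 5.76, adjusted p 0.000149). Acod1 stood at 6.99 against 325 CPM and at 825 against 944 CPM (difference 5.33, adjusted p 8.8e-05). Tnf stood at 16.7 against 220 CPM and at 361 against 351 CPM (difference 3.75, adjusted p 3.93e-05). In the M1 groups the means of Acod1 and Tnf were thus closer than in the M0 groups. Other means were higher in KO_M1 than WT_M1, as Cxcl10 (180 against 22.4 CPM), Il12b (53.1 against 5.17) and Il6 (21.7 against 1.15). The difference was also called for Il12b (adjusted p 0.000294) and Il6 (0.00933), on 1 and 0 counts in KO_M0. Ccl2 (difference 6.40, adjusted p 0.00696, or 7.12 without KO_M0 replicate 2 and 4.52 without WT_M0 replicate 1), Cxcl10 (6.15, adjusted p 0.000223), Cd274 (2.55, adjusted p 0.000366) and Sod2 (2.40, adjusted p 0.000823) also had a more positive change in the knockout. Of the cell cycle genes, 39 of 43 had a more positive change in the knockout, beside 11.2% of all genes. Mki67 went there from a mean of 33.1 to 182 CPM (difference 4.05, adjusted p 1.09e-06), and Top2a from 53.2 to 396 CPM (difference 4.42, adjusted p 4.17e-06). For both, the KO_M0 mean was below every WT_M0 library given above. The 5 lowest p belonged to Gdf15 (difference 5.54, adjusted p 4.07e-09), the mitosis genes Knl1 (5.19) and Troap (5.60), Fscn1, an actin bundling protein (-4.71), and Lfng, a Notch-modifying enzyme (-3.05). Fscn1 rose 25.2-fold in wild-type cells, from 2.02, 1.2 and 2.04 CPM to 34.6, 38.7 and 61.2 CPM, while its means were 29.7 CPM in KO_M0 and 28.4 CPM in KO_M1. In wild-type cells Knl1 (-1.80 log2) and Troap (-1.50) were lower and Lfng was higher (1.97-fold). More negative changes in the knockout were also found for H2-Ab1, with means of 402 CPM in KO_M0 and 34.8 CPM in KO_M1 (difference -4.65, adjusted p 0.00301), Apoe, with 16815 and 128 CPM (-5.49, adjusted p 0.0018), Csf1r, with 6604 and 1502 CPM (-2.02, adjusted p 0.000862), and Tlr7, with 148 and 99.2 CPM (-2.15, adjusted p 2.13e-05). In H2-Ab1, Apoe, Csf1r and Tlr7 the KO_M0 mean was above every WT_M0 library given above. Against WT_M0 alone, Troap lost its call without WT_M1 replicate 2 (adjusted p 0.0562).

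**Figure D5:**
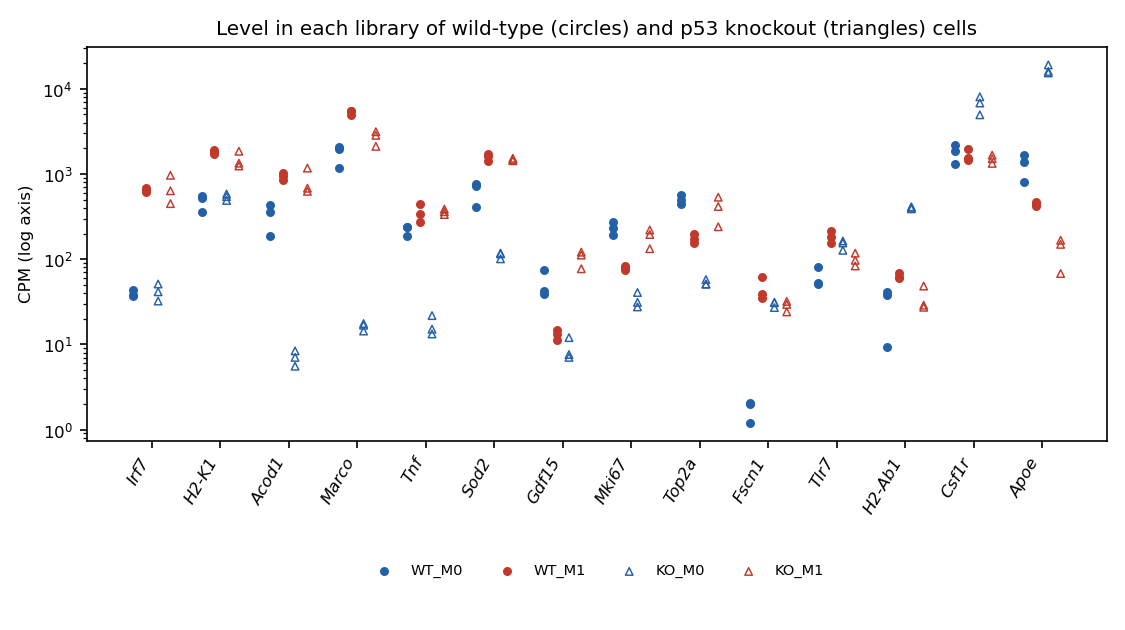
CPM in each library (log axis) of 14 genes in WT_M0 and WT_M1 (circles) and KO_M0 and KO_M1 (triangles), blue unpolarized and red with LPS and IFN-γ, n = 3 per group. Marco, Acod1 and Tnf are lowest in KO_M0 (means of 16.2, 6.99 and 16.7 CPM), and Mki67, Top2a and Gdf15 go down in wild-type and up in knockout cells.

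Set directly against WT_M2, WT_M1 had 3004 genes called (25.5%), 1397 higher (11.9%) and 1607 lower (13.6%). The 5 lowest p belonged to genes that were lower in WT_M1. These were Tmem26 (log2 difference -7.80, adjusted p 6.54e-17), the cytokine signalling inhibitor Cish (-8.29, adjusted p 4.25e-15, or -9.50 without WT_M1 replicate 1 and -7.69 without WT_M1 replicate 3), Dhrs9 (-4.83, adjusted p 2.55e-14), Il11ra1 (-3.45, adjusted p 1.46e-13) and the metalloproteinase inhibitor Timp2 (-3.99, adjusted p 2.43e-12). Il11ra1 shares 62.3% of its 3′ words with other genes. Against WT_M0, Tmem26 (-2.87 log2) and Dhrs9 (-1.16) were called lower, and Cish (adjusted p 0.217) and Il11ra1 (adjusted p 0.0743) were not called. Il11ra1 was called in a fit of the 6 libraries alone (adjusted p 0.0213), with total counts (0.00201) and without WT_M1 replicate 3 (0.0463). Dhrs9 lost its call without WT_M0 replicate 2 or WT_M1 replicate 3 (adjusted p up to 0.0683). This test and the one against WT_M0 share the WT_M1 libraries. Some genes that rose against WT_M0 were lower than in WT_M2 or were not called against it. Slc7a2 had a mean of 412 CPM in WT_M2 against 156 CPM in WT_M1 (log2 difference -1.40, adjusted p 0.00914), and Arg1 1461 against 47.3 CPM (-4.95, adjusted p 2.06e-07). Slc7a2 was not called without WT_M2 replicate 1 (adjusted p 0.0689). Il1a (0.92, adjusted p 0.305), Il1b (1.76, adjusted p 0.0501) and Nos2 (0.53, adjusted p 0.629) were not called between them, although DESeq2 called Il1b (adjusted p 0.0321). In WT_M2, replicate 1 stood above replicates 2 and 3 for Il1a (68.2 against 7.54 and 1.9 CPM) and Il1b (240 against 84.1 and 46.5 CPM). The same held for Saa3 (3421 against 201 and 174 CPM), and the cause was not tested. Without WT_M2 replicate 1 both Il1a (3.36, adjusted p 6.08e-06) and Il1b (2.67, adjusted p 0.00973) were called higher in WT_M1. With 1 library left out Nos2 ranged over 0.03 to 1.82 and was not called. Saa3 (5.78, adjusted p 0.000101), Cfb (5.49, adjusted p 4.42e-08) and Irf7 (4.43, adjusted p 5.58e-05) were higher in WT_M1. Without WT_M2 replicate 1 these differences were 8.53, 6.98 and 5.49, and in a fit of the 6 libraries alone Saa3 was not called (adjusted p 0.0693). Mrc1 (-4.97, adjusted p 1.48e-09), H2-Ab1 (-3.09, adjusted p 0.0032) and Cd74 (-5.04, adjusted p 1.01e-05) were lower in WT_M1.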

How the data were processed

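RNA from bone marrow-derived macrophages was measured by 3′ mRNA sequencing (Lexogen QuantSeq FWD, 100 ng of RNA, 75-base single reads, per the labels' protocols). The authors deposited raw counts per gene as whole numbers for all libraries. The submitters' processing notes name Bowtie2, RSEM and DESeq2, with no settings. The genome build and annotation of the counts are not given in the sources read here. A count comes from reads near a transcript's 3′ end, so genes that share 3′ sequence can exchange reads. The share of 30-base words in the last 400 transcript bases that other genes hold was taken from GENCODE vM21.

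The counts were fitted with edgeR 4.0.16 (R 4.3.3): filterByExpr, TMM, robust glmQLFit and glmQLFTest, 1 mean for each of 12 groups, over 36 bone marrow-derived libraries. These share 1 estimate of the spread (biological coefficient of variation 0.225). Calls are two-sided at a Benjamini-Hochberg adjusted p under 0.05 over 11779 genes. Each SE was derived from the test, as the size of the log2 fold change over the square root of its F statistic. Totals of 3640881 to 4645148 counts set the precision of low genes, and for a gene with 0 counts in WT_M0 a floor of 3 counts in that group gives the bound. Some genes of these lists are not reported here. Peritoneal libraries and those given AP-3-84 enter no comparison, although bone marrow-derived libraries given AP-3-84 are among the 36 fitted. The method was also run on counts simulated from its own fit, which cannot show whether the model suits these data. Symbols were found for 51596 of 51789 gene IDs. Promoters are from RefSeq (GRCm38.p6) and coordinates from GENCODE on GRCm38.

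Named were a set of known markers, the 15 largest rises and falls (average log2 CPM of 3 or more, no overlap), the 3 largest of each list in each direction, and the 5 lowest p of the other comparisons, with further members to show a list's range. The 45 lists and the genes named were chosen with earlier results of these data known. Alternatives were DESeq2 1.42.0, median-ratio or total-count scaling, no filter, fewer libraries in the fit, a fold threshold, the replicate number as a block, and each replicate left out. List counts with each library left out were added after seeing the data.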

Additional observations from a re-analysis of the deposited data

Results flagged for a closer look

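The change with LPS and IFN-γ differed between wild-type cells and those labelled p53 knockout for 2442 genes by the edgeR test of the difference between the changes. Among the 22 named genes called in that test, those with a more positive change in the knockout, as log2 differences, were Ccl2 (6.40), Cxcl10 (6.15), Marco (5.76), Troap (5.60), Gdf15 (5.54), Acod1 (5.33), Knl1 (5.19), Top2a (4.42), Mki67 (4.05), Tnf (3.75), Ifit2 (2.75), Cd274 (2.55), Sod2 (2.40), Usp18 (1.82) and Gbp3 (1.39). Those with a more negative change were Apoe (-5.49), Fscn1 (-4.71), H2-Ab1 (-4.65), Lfng (-3.05), Tlr7 (-2.15), Csf1r (-2.02) and Ly6e (-1.38). Some of these come with a level in KO_M0 that is far from WT_M0, and the part of that gap in the difference was not tested. Ccl2 was at 656 CPM in WT_M0 replicate 1 and at 93.2 and 50.6 CPM in the other WT_M0 libraries. Il12b and Il6 were also called in that test, on 1 and 0 counts in KO_M0, and are not among the 22.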

How the results depend on the processing

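With a log2 fold change of 1 or more in size added to the threshold, 841 genes were called between WT_M1 and WT_M0 (401 higher, 440 lower), 1738 between WT_M1 and WT_M2 (777 and 961), and 731 had a more negative change in the knockout. Scaling by total counts gave 439 higher and 2164 lower in WT_M1 than WT_M0. It gave 604 more negative changes in the knockout (76.4% of calls positive against 54.1%, with the median moved to 0.23). A fit of the 6 libraries alone gave 2564 calls against WT_M0, of which 1337 were falls, beside 1825 calls in the main fit. With 1 library left out, 1118 to 1522 genes were called (581 to 781 higher, 488 to 741 lower), the fewest without WT_M1 replicate 2 and most without WT_M0 replicate 1. The genotype difference then had 1777 to 2320 (1016 to 1292 positive, 756 to 1028 negative) and WT_M1 against WT_M2 2339 to 3012 (1002 to 1428 higher, 1286 to 1584 lower). Of 202 named genes called against WT_M0, 132 kept their call whichever library was left out, as did 19 of 22 in the genotype difference and 12 of 13 against WT_M2, and none of these changed sign in the alternatives run. Of 28 named genes not called against WT_M0, 13 were called in at least 1 alternative, of which Ccl2 (adjusted p 7.39e-11), Cd74 (0.00107) and H2-Ab1 (1.88e-06) only without the filter on low counts. List counts moved by over 1.5 times, or to or from 0, in 18, 12 and 15 of the 45 lists without WT_M0 replicates 1, 2 and 3, and in 12, 19 and 18 without those of WT_M1. The sign turned in 5 genes that were not called. Cd14 went to -0.23 with total counts and ranged over -0.21 to 0.32 with a library left out. Csf1r ranged over -0.30 to 0.0455, Cx3cr1 over -0.00878 to 0.60 and Il6 over -0.0399 to 2.13. Cxcl10 ranged over -0.50 to 0.38, with 0.0249 and 0.0514 without WT_M1 replicates 1 and 3. The cause of these changes was not tested. Deviations of same-numbered WT_M0 and WT_M1 libraries had correlations of -0.0161, 0.0826 and 0.218 across genes. For replicate 3 of WT_M1 and WT_M2 the correlation was 0.255. Not every library correlated best with its own number. These values cannot tell whether the numbers mark pairs. With the replicate number as a block, 1780 genes were called against WT_M0, 1745 of them also without it, 2373 in the genotype difference (2344 shared) and 2961 against WT_M2 (2912 shared), and 8 named results lost their call. Depth limits genes of a few counts, such as Nos2, Cxcl9, Il6 and Ciita.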
